A study of Homo sapiens with 8 samples.

Results

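Genes that take up, activate and break down cytidine and its drug analog cytarabine were followed in MOLM-13 cells treated with the immunoproteasome inhibitor PR-957. The set held 10 of the 38551 genes in the count table. These were the transporter SLC29A1, the kinases DCK and CMPK1, the nucleotidase NT5C2, the deaminases CDA and DCTD, the nucleotide hydrolase SAMHD1, the ribonucleotide reductase subunits RRM1 and RRM2, and the thymidylate synthase TYMS. The genes were chosen by name for their place in this pathway, and CDA was included because it rose strongly in these same libraries. For that reason the change of CDA is given as a description with no test. MOLM-13 is an established human acute myeloid leukemia line with a rearranged KMT2A gene, and it was the only line sequenced. Libraries of polyA RNA were made from cells that received 100 nM PR-957 (ONX-0914) for 72 h and from cells that received the diluent DMSO for 72 h, with 4 libraries in each group. Both groups were grown in RPMI with fetal bovine serum. The labels do not say whether the replicates were separate cultures, so p-values measure the spread between these libraries, which may be technical.

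Cytarabine is a cytidine analog and a mainstay of treatment for acute myeloid leukemia. The drug enters cells mainly through the equilibrative nucleoside transporter SLC29A1 and is trapped as a monophosphate by deoxycytidine kinase (DCK), after which CMPK1 and a further kinase complete the active triphosphate. NT5C2 can remove the first phosphate, CDA deaminates the free nucleoside to an inactive uridine analog, DCTD deaminates the monophosphate, and SAMHD1 hydrolyses the triphosphate. The same enzymes handle natural deoxynucleotides, which ribonucleotide reductase (RRM1 with RRM2) and TYMS supply for DNA synthesis. Among these deoxynucleotides, dCTP competes with the drug triphosphate at DNA polymerases. No cytarabine was given in these samples, and only RNA was measured.

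Library totals ran from 16675036 to 23111223 counts, and all 10 genes passed the filter on low counts. Mitochondrial genes held 1.937% to 2.748% of counts in DMSO and 4.148% to 5.243% in PR-957, and their part in the results below was not tested. All 12 genes used to check the identity of the leukemia line were expressed, and 7 of them fell and 2 rose. Across all tested genes, 23.5% fell and 23.1% rose. FLT3 (-0.98) and MEF2C (-0.78) were the furthest down of the 12 on the log2 scale. Of 18 markers of erythroid, T, B, stromal and megakaryocytic cells, 4 passed the filter and 1 rose, the erythroid factor KLF1, from 0.241 to 0.95 CPM (counts over the scaled library total). The summed level of those 4 markers was 2.13 to 3.74 CPM in DMSO and 2.51 to 3.97 in PR-957, and CD3E, PF4 and PPBP had 0 counts in every library. PSMB8, the subunit that PR-957 inhibits, had 8.43 ± 1.03 CPM in DMSO and 7.60 ± 1.65 in PR-957 (SD, n = 4, adjusted p = 0.438 by the quasi-likelihood test of edgeR). Its level is uncertain, because the gene models place it on 8 contigs.

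To assess how these genes moved, each was read from a fit of all 13179 tested genes. Of the 9 genes other than CDA, 4 rose (SLC29A1, RRM1, RRM2 and TYMS), 2 fell (NT5C2 and DCTD) and 3 did not pass an adjusted p of 0.05 (DCK, CMPK1 and SAMHD1). Across all tested genes 46.6% passed, with 23.1% higher and 23.5% lower, and nothing about the 9 genes is read from their count, since they were chosen with these results known. Their median log2 fold change was 0.06 (0.003 over all tested genes), and none of the 9 changed by as much as 1.5-fold, where 13.8% of all tested genes passed with at least that change. The groups did not overlap for 7 of the 9 genes, beside 42.5% of all tested genes. CDA differed most between the groups, at 4.70-fold higher in PR-957, but from a low level. In bulk libraries, fewer cells of a type and less RNA per cell cannot be told apart.

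**Figure D1:**
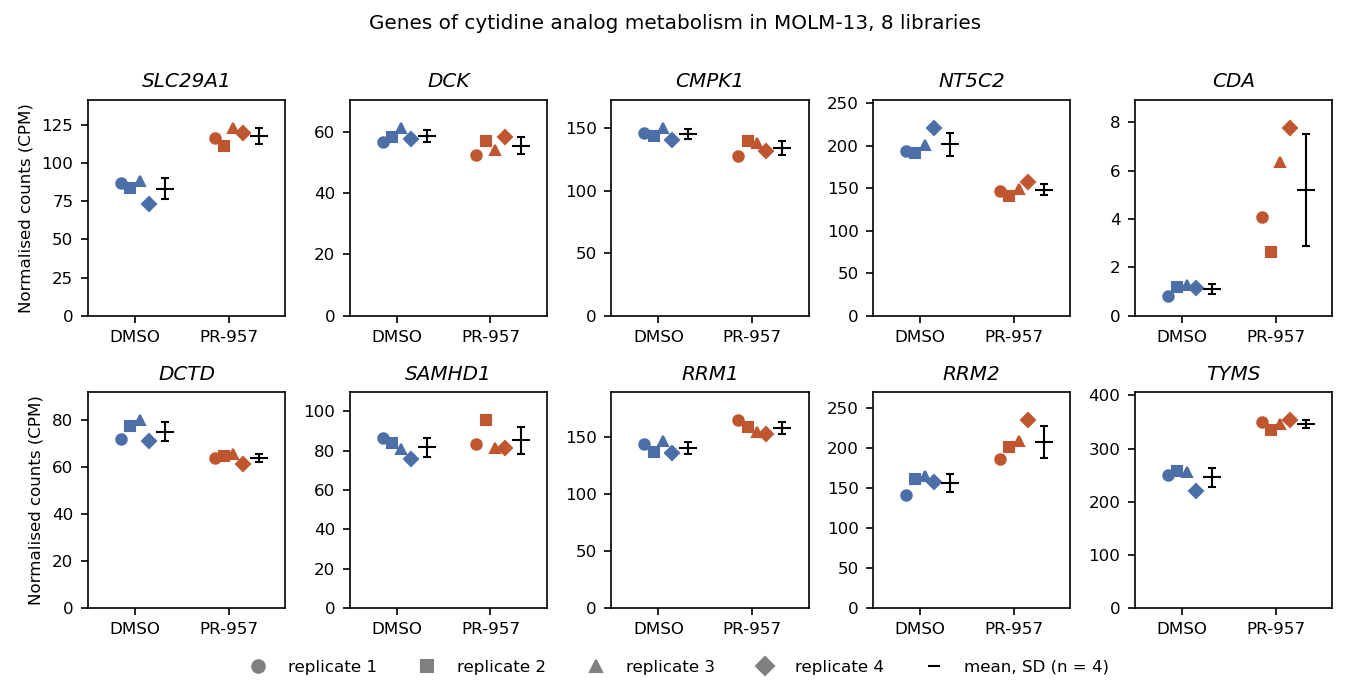
Normalised counts (CPM, linear axes from 0) of the 10 genes in 4 DMSO and 4 PR-957 libraries, with marker shapes for replicate numbers and bars for the mean ± SD (n = 4). SLC29A1, CDA, RRM1, RRM2 and TYMS lay higher in every PR-957 library than in any DMSO library, CMPK1, NT5C2 and DCTD lay lower, and DCK and SAMHD1 overlapped.

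The uptake gene SLC29A1 (chr6:44219587-44234144 of hg38, plus strand) rose. It measured 87.4, 83.8, 88.6 and 73.5 CPM in DMSO replicates 1 to 4 and 117, 112, 123 and 120.2 CPM in PR-957 replicates 1 to 4. Every treated library lay above every control, and DMSO replicate 4 was the lowest. The group means were 83.3 ± 6.85 and 118 ± 4.96 CPM (SD, n = 4), a log2 fold change of 0.50 (SE 0.06, edgeR adjusted p = 2.3e-06). Each change was also computed from replicates 1 and 2 alone and from replicates 3 and 4 alone. For SLC29A1 these pairs gave 0.42 and 0.59.

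The activating kinases did not pass the test. DCK, the rate-limiting enzyme of cytarabine activation (chr4:70993649-71030914, plus strand), measured 56.8, 58.4, 61.3 and 57.5 CPM in DMSO and 52.4, 57.0, 54.0 and 58.4 in PR-957. The groups overlapped. The log2 difference was -0.08 with a 95% interval from -0.20 to 0.05 (edgeR adjusted p = 0.297). CMPK1, which adds the second phosphate (chr1:47333790-47378839, plus strand), measured 146, 144, 150.3 and 141 CPM in DMSO and 128, 140.2, 138 and 132 in PR-957. Its groups did not overlap, although the highest treated library and the lowest control were close. Its log2 difference was -0.11, with a 95% interval from -0.22 to -0.0021 and an edgeR adjusted p of 0.0881, and it passed only without DMSO replicate 4 among the fits that left out 1 library (-0.13, adjusted p = 0.0419).

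Of the genes that act against the activated drug, NT5C2 and DCTD fell. NT5C2, a cytosolic nucleotidase (chr10:103088017-103193306, minus strand), measured 193, 191, 200.5 and 221 CPM in DMSO and 146, 141, 149 and 157 in PR-957, with the groups well apart. Its mean went from 201 ± 13.5 to 148 ± 6.68 CPM (SD, n = 4), a log2 fold change of -0.44 (SE 0.06, edgeR adjusted p = 4.46e-06), with -0.42 and -0.47 within the pairs. DCTD, the deoxycytidylate deaminase (chr4:182890091-182917477, minus strand), measured 72.0, 77.3, 79.9 and 71.2 CPM in DMSO and 63.8, 64.7, 65.6 and 61.2 in PR-957. All 4 treated libraries lay below the controls. The log2 fold change was -0.23 (SE 0.06, edgeR adjusted p = 0.00254), with -0.22 and -0.25 within the pairs.

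SAMHD1, the triphosphate hydrolase (chr20:36889773-36951843, minus strand), did not pass the test. It measured 86.6, 83.6, 80.6 and 75.5 CPM in DMSO and 83.2, 95.4, 81.1 and 81.1 in PR-957. The groups overlapped, and PR-957 replicate 2 stood above all other libraries. The log2 difference was 0.06 with a 95% interval from -0.07 to 0.20 (edgeR adjusted p = 0.435).

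CDA, cytidine deaminase (chr1:20589097-20618903, plus strand), was the least abundant of the 10 genes and the 1 with the widest gap between groups. Its raw counts were 13, 21, 21 and 26 in DMSO replicates 1 to 4 and 73, 50, 139 and 138 in PR-957 replicates 1 to 4. On the normalised scale these were 0.814, 1.17, 1.27 and 1.14 CPM against 4.07, 2.61, 6.35 and 7.76 CPM. The controls were tightly grouped, while treated replicates 3 and 4 were higher than treated replicates 1 and 2. The means were 1.10 ± 0.197 and 5.20 ± 2.30 CPM (SD, n = 4), a log2 difference of 2.23 (SE 0.31). The summed counts, 81 against 400, gave a scaled ratio of 4.72 with an exact 95% interval from 3.71 to 6.07, which covers counting error only. With the spread between libraries, the 95% interval of the log2 difference ran from 1.57 to 2.89. Neither interval is a test, since CDA was included for its rise in these libraries. The difference was 1.73 within replicates 1 and 2 against 2.55 within replicates 3 and 4, and it ran from 1.98 to 2.45 when any 1 library was left out.

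Of the genes that supply deoxynucleotides, RRM1, RRM2 and TYMS rose. RRM1, the large subunit of ribonucleotide reductase (chr11:4094685-4138932, plus strand), measured 144, 136, 146 and 135 CPM in DMSO and 164, 159, 154 and 152 in PR-957, with no overlap. Its log2 fold change was 0.17 (SE 0.05, edgeR adjusted p = 0.0141). The first pair gave 0.21 (adjusted p = 0.00982) but replicates 3 and 4 gave 0.12, which did not pass (adjusted p = 0.239). RRM2, the small subunit that peaks in S phase (chr2:10122568-10211010, plus strand), measured 140.4, 161, 165 and 157 CPM in DMSO and 186, 201, 209 and 234 in PR-957. All treated libraries lay above the controls. Its log2 fold change was 0.41 (SE 0.07, edgeR adjusted p = 6.96e-05), with 0.36 and 0.46 within the pairs. TYMS, which makes thymidylate (chr18:657653-673578, plus strand), measured 249, 257, 257 and 220.3 CPM in DMSO and 349, 334, 347 and 353 in PR-957. The gap between the groups exceeded the spread within either. Its log2 fold change was 0.49 (SE 0.06, edgeR adjusted p = 9.44e-07), with 0.43 and 0.55 within the pairs.

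**Figure D2:**
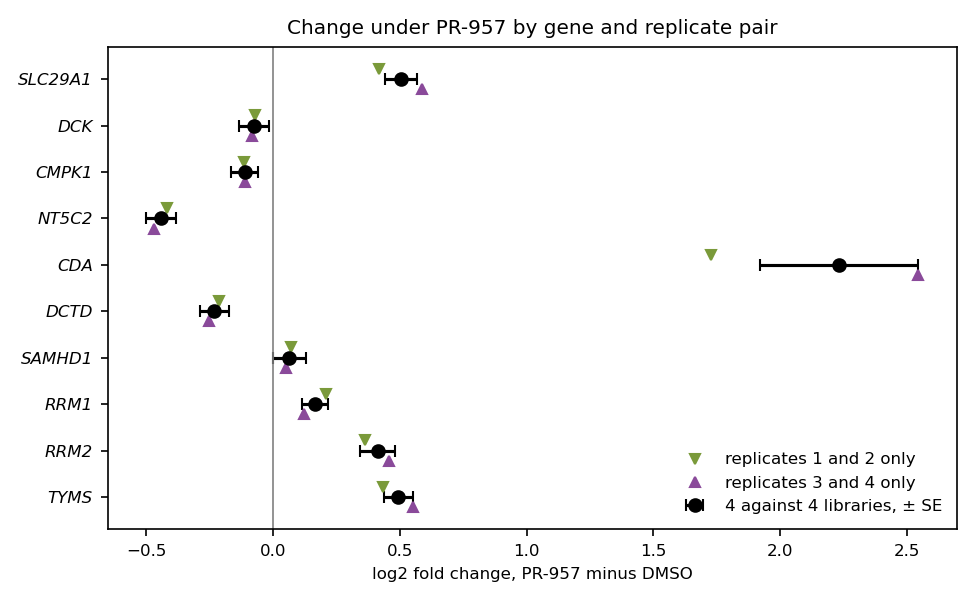
Log2 fold change of each gene, PR-957 minus DMSO, from 4 against 4 libraries (black circles, bars ± SE) and from replicates 1 and 2 or replicates 3 and 4 alone (triangles). The sign was the same in both pairs for all 10 genes, and CDA differed most between them, at 1.73 and 2.55.

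Promoter sequences are shown for CDA, which lay furthest apart between the groups, and for the 3 deoxynucleotide supply genes that rose together. Each runs from 250 bases before to 30 bases after a RefSeq start site in GRCh38.p14, the assembly whose primary chromosomes are those of hg38. Capitals mark CCAAT boxes (CCAAT, either strand) and letters like an E2F site (TTTNNCGC, either strand), which did not overlap another motif searched. The windows are chr1:20588847-20589126 for CDA, chr18:657403-657682 for TYMS, chr11:4094435-4094714 for RRM1 and chr2:10122489-10122768 for RRM2, all on the plus strand.
CDA: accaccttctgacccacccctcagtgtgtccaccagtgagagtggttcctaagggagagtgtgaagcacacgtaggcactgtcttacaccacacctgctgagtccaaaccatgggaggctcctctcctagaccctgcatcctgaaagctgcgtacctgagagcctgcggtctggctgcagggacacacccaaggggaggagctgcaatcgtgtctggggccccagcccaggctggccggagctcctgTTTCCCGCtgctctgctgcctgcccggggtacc
TYMS: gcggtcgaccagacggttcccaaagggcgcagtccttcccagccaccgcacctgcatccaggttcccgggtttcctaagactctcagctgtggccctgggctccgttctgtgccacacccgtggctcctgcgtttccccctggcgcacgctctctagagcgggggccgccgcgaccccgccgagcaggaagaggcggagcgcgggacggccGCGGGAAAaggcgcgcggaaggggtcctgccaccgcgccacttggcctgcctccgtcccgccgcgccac
RRM1: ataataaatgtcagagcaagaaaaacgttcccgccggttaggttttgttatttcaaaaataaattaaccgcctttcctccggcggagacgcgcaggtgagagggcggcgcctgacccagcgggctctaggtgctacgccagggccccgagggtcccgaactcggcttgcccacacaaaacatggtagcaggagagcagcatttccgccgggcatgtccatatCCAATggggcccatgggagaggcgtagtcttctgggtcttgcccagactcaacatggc
RRM2: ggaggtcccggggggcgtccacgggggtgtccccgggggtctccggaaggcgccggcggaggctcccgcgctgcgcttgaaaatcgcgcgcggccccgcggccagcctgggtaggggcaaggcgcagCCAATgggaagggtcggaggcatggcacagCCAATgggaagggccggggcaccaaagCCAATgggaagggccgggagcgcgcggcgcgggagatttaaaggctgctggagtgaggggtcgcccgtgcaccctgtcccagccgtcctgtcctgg
The CDA window held the E2F-like match TTTCCCGC from 3 bases before the start site, and the TYMS window held GCGGGAAA, the same motif on the minus strand, from 39 bases before it. RRM1 held a CCAAT box at 28 bases before the start, and RRM2 held 3 of them, at 123, 93 and 66 bases before it. All 10 genes had a window, 15 windows in all. An E2F-like match was in 3 of the 15 windows (CDA, TYMS and DCK) and in 6.55% of 35116 RefSeq promoter windows. A CCAAT box was in 4 of the 15 (RRM1, SAMHD1 and both windows of RRM2) and in 33.6% of all, and a GC box (GGGCGG) in 8 and in 44.1%. A TATA box (TATAAA) and a C/EBP-like motif (TTGCNNAA) were in none of the 15, against 11.2% and 9.96% of all. Windows of 1 gene can overlap. A match is only a run of letters, and binding of a factor was not measured.

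To place the genes on a common scale, levels were divided by gene length and are given as CPM per kilobase in DMSO. TYMS was the highest at 136.6 ± 9.65 (SD, n = 4), above 97.1% of tested genes. CMPK1 at 41.35 ± 1.14 and RRM1 at 39.22 ± 1.51 followed, with overlapping ranges, and RRM2 lay below both at 34.36 ± 2.38. SLC29A1 and NT5C2 were not separated, at 26.53 ± 2.18 and 26.25 ± 1.76, and neither were DCK and DCTD, at 23.34 ± 0.782 and 22.89 ± 1.28. SAMHD1 had 13.37 ± 0.776. CDA was last at 1.36 ± 0.243, above 24.8% of tested genes, and the level of TYMS was 100.8 times that of CDA. In PR-957, CDA stood at 6.42 ± 2.84 CPM per kilobase, above 54.9% of tested genes, and it remained the lowest of the 10. SLC29A1 (37.58) and NT5C2 (19.32), level in DMSO, were far apart in PR-957, and RRM2 (45.76) had moved above CMPK1 (38.25).

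Ratios between genes within a library do not depend on the scaling between libraries, and they are given as descriptions. The ratio of DCK to CDA counts per base, activation set against deamination of the free nucleoside, was 22.5, 16.1, 15.6 and 16.4 in DMSO and 4.16, 7.05, 2.75 and 2.43 in PR-957. All treated libraries were lower, and treated replicate 2 was the nearest to the controls. This ratio restates the difference in CDA and is no separate result. Its log2 difference was -2.22, beside 2.23 for CDA, which was included for its rise, and -0.08 for DCK. The ratio of DCK to NT5C2, addition against removal of the first phosphate, was 0.899, 0.936, 0.936 and 0.798 in DMSO and 1.10, 1.24, 1.11 and 1.14 in PR-957. All treated libraries lay above all controls. The log2 difference of this ratio was 0.36, beside -0.44 for NT5C2 and -0.08 for DCK, so it mostly restates the fall of NT5C2. The size of such a ratio depends on the gene lengths used, so its place relative to 1 has no meaning. The ratio of RRM2 to RRM1 was 0.771, 0.932, 0.891 and 0.916 in DMSO and 0.894, 0.999, 1.07 and 1.21 in PR-957, so the groups overlapped. The ratio of RRM2 to SAMHD1, synthesis against hydrolysis of deoxynucleotides, was 2.18, 2.59, 2.76 and 2.80 in DMSO and 3.01, 2.83, 3.46 and 3.89 in PR-957. Here the lowest treated library was only just above the highest control. The log2 difference was 0.35, beside 0.41 for RRM2 and 0.06 for SAMHD1, so this ratio mostly restates the rise of RRM2.

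**Figure D3:**
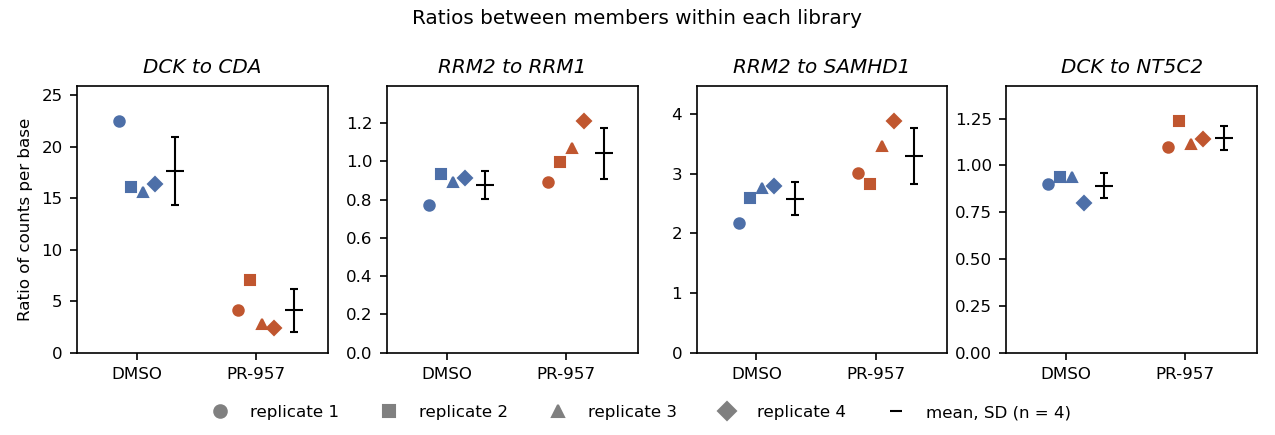
Ratios of counts per base between pairs of genes in each of 4 DMSO and 4 PR-957 libraries (linear axes from 0), with marker shapes for replicate numbers and bars for the mean ± SD (n = 4). The ratio of DCK to CDA went from 17.65 ± 3.27 in DMSO to 4.10 ± 2.11 in PR-957, and the RRM2 to RRM1 ratios overlapped between the groups. The change in the DCK to CDA ratio restates the difference in CDA, which was included for its rise.

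A list of 80 other genes of nucleoside and nucleotide metabolism was examined for comparison. Of these, 65 were tested, 26 rose, 9 fell and 30 did not pass, with a median log2 fold change of 0.14. The share that passed was 53.8%, beside the 46.6% of all tested genes. No transcript count was seen for 9 of the 80, among them the efflux pump genes ABCB1 and ABCG2 and the cytidine deaminase family members APOBEC1, APOBEC2 and APOBEC3A.

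Among other nucleoside transporters 1 of 4 tested genes rose, SLC29A4, a monoamine and adenosine transporter, from 3.19 ± 0.845 to 6.09 ± 0.601 CPM (log2 fold change 0.92, edgeR adjusted p = 0.000451). Of 4 efflux pumps 3 rose, where 23.1% of all tested genes were higher. The largest rise was that of the nucleotide analog exporter ABCC5, from 12.6 ± 0.713 to 21.6 ± 2.17 CPM (0.78, adjusted p = 1.27e-06). Of 7 nucleoside kinases 2 were higher and 2 lower, and of 13 nucleotide kinases 3 were higher, a share of 23.1% that equals that of all tested genes. All 4 tested nucleotidases passed, 3 of them lower, where 23.5% of all tested genes were lower. NT5C3A, a pyrimidine nucleotidase, fell from 55.6 ± 0.679 to 33.0 ± 1.17 CPM (-0.75, adjusted p = 5.0e-09), and the mitochondrial NT5M fell from 18.1 ± 3.61 to 7.65 ± 1.10 CPM (-1.24, adjusted p = 2.01e-06). These 2 fell by more than NT5C2 did, by point estimate, and the difference between the genes was not tested.

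Of 7 other deaminases 2 rose and 1 fell (42.9% passed, beside 46.6% of all tested genes). Nucleotide hydrolases had 4 of 6 higher, the largest being DCTPP1, which cleaves dCTP and its analogs, from 56.8 ± 5.55 to 86.6 ± 1.97 CPM (0.61, edgeR adjusted p = 4.19e-07). Thymidylate, folate and phosphorylase genes had 3 of 6 higher and 1 lower, pyrimidine synthesis 2 of 5 higher and 1 lower, and DNA polymerase genes 5 of 8 higher and 1 lower. Across all tested genes 23.1% were higher and 23.5% lower, and nothing is read from counts in groups this small. The lower polymerase gene was PRIM1, the catalytic subunit of DNA primase, from 92.5 ± 5.01 to 52.1 ± 3.99 CPM (-0.83, adjusted p = 4.48e-09). RRM2B, the alternative small subunit of ribonucleotide reductase, did not pass (-0.13, adjusted p = 0.148).

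**Figure D4:**
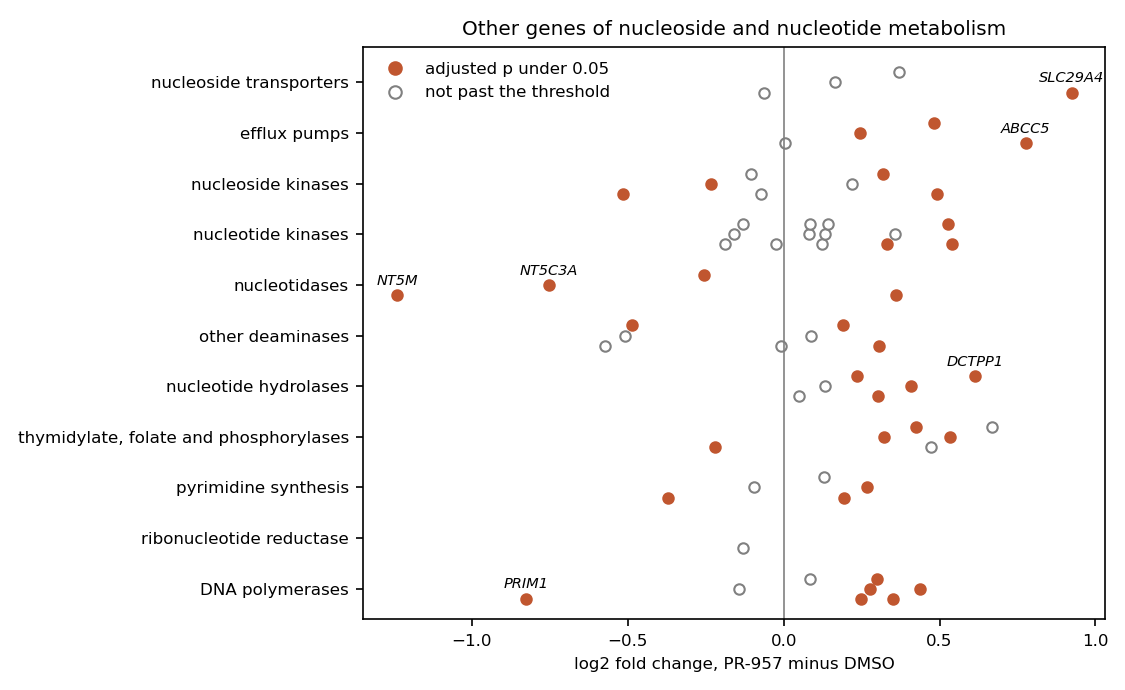
Log2 fold changes, PR-957 minus DMSO, of 65 other genes of nucleoside and nucleotide metabolism grouped by role, filled where the adjusted p was under 0.05 and open where it was not. Names mark the 6 genes that passed and changed at least 1.5-fold, 3 of them higher and 3 lower.

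RRM1, RRM2 and TYMS are transcribed most in S phase, and other genes of that phase moved in the same libraries. Of 22 S phase genes, which include none of the 10, 20 rose and 1 fell (95.5% passed, beside 46.6% of all tested genes), with a median log2 fold change of 0.38. Their summed level was 2367 to 2803 CPM in DMSO and 3368 to 3438 in PR-957. The largest increases were those of cyclin E1 (CCNE1, 0.94) and the checkpoint adaptor CLSPN (0.92), and the replication licensing factor CDT1 fell (-0.59, edgeR adjusted p = 2.5e-07). The part of S phase genes in the change of the 3 genes was not tested.

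CDA is expressed in mature granulocytes and monocytes. A list of 19 granulocyte and monocyte genes also held genes of granules that form in immature promyelocytes (MPO, ELANE, AZU1, PRTN3 and CTSG). Of the 19, 15 were tested, 9 rose and 1 fell (66.7% passed, beside 46.6% of all tested genes), with a median log2 fold change of 1.38. Their summed level was 1331 to 1605 CPM in DMSO and 2499 to 2816 in PR-957. Much of that sum came from CTSG, with means of 775 and 1021 CPM, LYZ, with 153 and 820, and MPO, with 175 and 506. CSTA, with 200 and 116 CPM, went the other way. CSF1R (0.34), ITGAM (0.22) and FCGR1A (-0.10), which mark more mature cells, did not pass. Other genes of the list did rise, among them LYZ (2.42), MNDA (2.06), CEBPE (1.58) and FCN1 (1.38, with overlapping groups). The calprotectin genes S100A8 (3.45) and S100A9 (2.73) rose most, and the protease inhibitor CSTA fell (-0.79, edgeR adjusted p = 7.38e-08). S100A8 was at 12.9, 12.8, 12.6 and 11.3 CPM in PR-957 replicates 1 to 4. The monocyte markers CD14 (9 against 21 counts), S100A12 (0 against 5) and VCAN (10 against 20) were too low to test. The part of these genes in the difference in CDA was not tested.

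The 5 genes whose levels followed CDA most closely over the 8 libraries were PRRT4, LRRC58, ESPL1, RAB44 and GDE1, with Pearson correlations of log2 CPM from 0.985 to 0.993 among 11270 genes. These are descriptions, since the points share the libraries and the split between groups. PRRT4, the closest, measured 6.70, 8.58, 8.995 and 8.26 CPM in DMSO and 20.4, 15.7, 24.2 and 25.8 in PR-957, with the same order of libraries as CDA in PR-957. ESPL1, which encodes separase, differed between the groups far less than CDA did, at a log2 fold change of 0.44.

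The nearest tested genes along chromosome 1 were also read. PINK1, a mitochondrial kinase gene that starts 14555 bases after the end of CDA, went from 7.60 ± 1.05 to 15.7 ± 1.87 CPM (log2 fold change 1.04, SE 0.12, edgeR adjusted p = 8.7e-07). PINK1-AS, on the opposite strand, rose by 0.74 (adjusted p = 0.000305). On the other side, MUL1 (0.17, adjusted p = 0.0813) and CAMK2N1 (-0.08, adjusted p = 0.862) did not pass.

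Exons of 4 of the genes overlapped those of genes on the opposite strand. ENOSF1 covered 53.8% of the exonic length of TYMS, and it fell while TYMS rose, from 110.0 ± 4.26 to 81.0 ± 7.97 CPM (-0.44, edgeR adjusted p = 1.83e-05). CNNM2 covered 24.7% of NT5C2 and did not pass (-0.25, adjusted p = 0.0841), and TYMSOS covered 5.89% of TYMS and did not pass (-0.20, adjusted p = 0.452). TLDC2 covered 18.4% of SAMHD1 and held 0 counts in DMSO and 3 in PR-957, beside 5949 counts of SAMHD1 in DMSO, and LOC105373424 covered 3.9% of RRM2 and held 2 counts in each group. Counting was set to the reverse strand, and the labels do not state whether the kit marks strand.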

How the data were processed

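The authors deposited a table of raw counts of fragments for each gene, without normalization. According to the submitters' processing notes and the header, reads were trimmed with Trimmomatic 0.39, aligned to hg38 with STAR 2.7.10a and counted with featureCounts 2.0.1, both ends mapped and reverse strand, against NCBI RefSeq models. The counting command named 16 libraries, of which 8 were columns of the table and the others were not analysed here. The authors' own comparison (DESeq2 means, log2 fold changes, standard errors and p-values) was not used. Rows with no value (6) were left out.

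Groups came from the sample labels. PR-957 was compared with DMSO by edgeR 4.0.16 in R 4.3.3 (TMM scaling, filterByExpr, robust glmQLFit, glmQLFTest, two-sided, no covariate), with Benjamini-Hochberg adjustment over all 13179 genes tested, which held 99.9% of counts. CPM are TMM-normalised. A gene passed, rose or fell at an adjusted p under 0.05. Pearson correlations used log2 CPM with a prior count of 2. No pair of replicate libraries was near identical. The 10 genes, the gene lists and the tests were chosen with earlier results of these data known. Genes named beside the 10 were other nucleotide genes that passed and changed at least 1.5-fold, the extremes of the S phase and myeloid lists, neighbours of CDA, the 5 most like CDA, exon-overlapping genes and PSMB8. Other genes were named after their values were seen. Alternatives were DESeq2 1.42.0, limma-voom (limma 3.58.1), other scalings and filters, a replicate block, a batch term for replicates 1 and 2 against the others, fits within each pair of replicates, and leaving out each library.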

Additional observations from a re-analysis of the deposited data

Results flagged for a closer look

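Of the 20 sets of 4 values (10 genes in each group), 1 held a library far from the others. SAMHD1 in PR-957 was at 95.42 CPM in replicate 2 and between 81.1 and 83.17 CPM in the other 3, a gap of 0.855 of the whole range. Chance alone flags about 1 in 20 such sets.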

How the results depend on the processing

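Over 19 alternatives, 3 to 4 of the 9 genes rose and 2 to 3 fell, and the log2 difference of CDA ran from 1.73 to 2.55. RRM1 did not pass in replicates 3 and 4 alone (0.12, adjusted p = 0.239). Without DMSO replicate 4, CMPK1 passed (-0.13, adjusted p = 0.0419). With library totals alone, DCK turned to 0.0022 (adjusted p = 0.979), MUL1 passed (0.25, adjusted p = 0.014) and the median of all genes moved to 0.0807. In replicates 3 and 4 alone, CAMK2N1 turned to 0.025 and TYMSOS to 0.059. With 1 library left out, CAMK2N1 ran from -0.234 to 0.15, turning without DMSO replicate 3 (0.15) and without PR-957 replicate 2 (0.11). In replicates 1 and 2 alone 2 granulocyte and monocyte genes fell, and without division by length TYMS was 224.1 times CDA. The cause of these changes was not tested. The number of all genes that passed ran from 4681 to 6913.

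The labels do not tie libraries by number. Deviations of same-numbered libraries correlated at 0.0985 to 0.213, and 7 of 8 libraries correlated best with their own number. With the replicate number as a block, 6913 genes passed, CMPK1 passed (-0.11, adjusted p = 0.0451) and no other of the 9 genes changed its call. CDA had 13 to 26 counts per DMSO library.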
